A study of Homo sapiens with 4 samples.

Results

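Proteoglycans are core proteins that carry sulfated sugar chains (chondroitin, dermatan, heparan or keratan sulfate) and either sit in the extracellular matrix or are anchored in the cell membrane. The 10 genes described here were chosen by name: the small leucine-rich proteoglycans BGN, DCN, LUM and FMOD, the hyaluronan-binding VCAN and BCAN, the basement membrane proteoglycan HSPG2, and the cell surface proteoglycans GPC1, SDC1 and CSPG4. All 10 were found, each once, among the 60617 genes listed per library. They span several families, since only GPC1 is a glypican, SDC1 is a syndecan and CSPG4 is a transmembrane proteoglycan of its own kind.

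Messenger RNA was measured in spheres of U87MG, an established human glioblastoma line that normally carries a deletion of the CDKN2A locus. Abemaciclib, an inhibitor of the kinases CDK4 and CDK6, was given to 1 group (2 libraries), and the other group was untreated (2 libraries). Both groups were grown in DMEM/F12 that contained N2, 2% B27 and the growth factors EGF and bFGF (20 ng/ml of each), and both carry a time label of 14, which the series design gives as days of treatment. The dose of abemaciclib, and any vehicle in the untreated spheres, are not given in the sources used here. Nothing in the labels says that the 2 libraries of a group came from separate cultures, and the p-values therefore speak of the spread among these 4 libraries, part or all of which may be technical.

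Totals were 23684260 and 33226884 expected counts in the abemaciclib libraries, against 27485206 and 33418075 in the untreated libraries. CDKN2A had 0 counts in each of the 4 libraries, and the mesenchymal filament gene VIM stood at 4330 and 4407 CPM with abemaciclib, against 6250 and 5679 CPM untreated. The astrocyte marker GFAP was nearly undetected, at 4 to 10 counts per library. The mitochondrial genome took up 11.8% and 11.7% of counts with abemaciclib, against 4.27% and 4.66% untreated. CPM, the usual depth-scaled count, here uses library totals adjusted by TMM, a scaling that sets the bulk of genes level between libraries.

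As background, small leucine-rich proteoglycans bind collagen fibrils and can hold growth factors of the TGF-beta family in the matrix. Hyalectans such as versican and brevican tie hyaluronan to other matrix proteins, brevican mainly in brain, and perlecan binds laminins and growth factors in basement membranes. Glypicans and syndecans present heparan sulfate at the cell surface, where it acts as a co-receptor for ligands such as FGFs and Wnts.

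Abemaciclib spheres held less mRNA of 5 matrix proteoglycans and more SDC1 mRNA than untreated spheres. Of the 10 genes, 9 had enough counts to be tested. Of these, 5 fell (BGN, DCN, LUM, VCAN and HSPG2), 3 rose (SDC1, CSPG4 and GPC1) and BCAN did not pass (edgeR quasi-likelihood test over all genes, Benjamini-Hochberg adjusted p under 0.05). Most genes changed in this comparison: 77.3% of 17207 tested genes passed the same threshold, 38.0% higher and 39.3% lower, so 8 of 9 passing is near the background. The sizes of the changes differed widely. When tested against a 2-fold change (glmTreat), BGN, DCN, LUM, HSPG2 and SDC1 passed, 5 of 9, against 21.6% of all tested genes. Of these, 4 were lower, against 12.3% of all genes, and 1 was higher, against 9.22%. The 10 genes were chosen with earlier results of these data known, so these shares do not test the set. The median log2 fold change was -0.51 over the 9 genes and -0.01 over all tested genes. The first is the value of BCAN, which was not called, within a range from -8.51 (BGN) to 3.27 (SDC1).

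**Figure D1:**
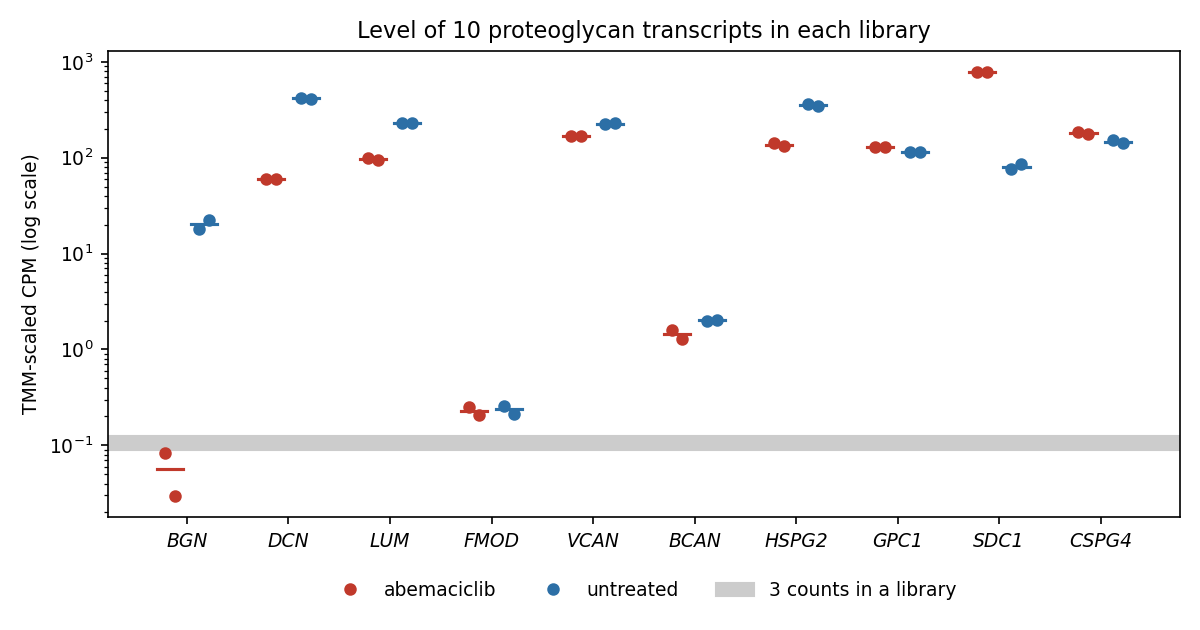
TMM-scaled CPM on a log axis for each of the 10 genes, with 1 point per library (red abemaciclib, blue untreated), a bar at the mean of 2 libraries and a grey band at the level of 3 counts in a library. BGN lies at or below the band with abemaciclib, against 18.1 and 22.6 CPM untreated, and SDC1 is the one gene that stands far higher with abemaciclib.

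The sequences before the transcription start of BGN and HSPG2, which fell past 2-fold, and of SDC1, which rose past it, are shown so that the changes can be read beside the promoters. They are from RefSeq (GRCh38.p14), 5′ to 3′ on the gene's strand, and end at the RefSeq start or at the first annotated exon base. Capitals mark the GC box GGGCGG and the SMAD box CAGACA on either strand.
BGN, chrX:153494730-153494938, plus strand: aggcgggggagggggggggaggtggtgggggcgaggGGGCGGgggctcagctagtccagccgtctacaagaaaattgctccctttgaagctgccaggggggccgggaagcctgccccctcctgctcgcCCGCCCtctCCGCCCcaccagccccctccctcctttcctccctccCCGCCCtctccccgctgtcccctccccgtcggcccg
HSPG2, chr1:21937311-21937560, minus strand: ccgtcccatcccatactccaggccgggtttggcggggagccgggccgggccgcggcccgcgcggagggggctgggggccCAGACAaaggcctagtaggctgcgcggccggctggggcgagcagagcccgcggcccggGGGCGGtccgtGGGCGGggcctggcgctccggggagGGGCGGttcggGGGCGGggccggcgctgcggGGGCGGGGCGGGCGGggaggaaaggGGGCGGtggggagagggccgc
SDC1, chr2:20225476-20225725, minus strand: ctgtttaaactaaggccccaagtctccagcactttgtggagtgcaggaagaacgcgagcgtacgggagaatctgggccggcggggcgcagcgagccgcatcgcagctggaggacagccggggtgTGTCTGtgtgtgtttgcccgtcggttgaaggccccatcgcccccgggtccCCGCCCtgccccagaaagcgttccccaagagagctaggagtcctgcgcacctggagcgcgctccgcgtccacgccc
The BGN stretch holds 4 GC boxes and lies in an intron of HAUS7, which runs on the opposite strand. The HSPG2 stretch holds 8, some of them overlapping at their ends, and 1 SMAD box. The SDC1 stretch holds 1 of each.

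Promoters of 8 of the 10 genes, all but DCN and LUM, were in the RefSeq table, with 9 starts, since SDC1 has 2. Over 250 bases before each start, GC content ran from 51.6% at FMOD to 84.0% at GPC1, against a median of 58.0% over 35114 listed starts. It was 74.0% for BGN, 82.8% for HSPG2 and 66.4% for the SDC1 start shown. The windows of FMOD and VCAN lay wholly within annotated exons of the same gene. Their GC content and motifs, the lowest GC content among them, therefore describe exon sequence. The windows of BCAN, BGN and the SDC1 start not shown were partly exon of their own gene. That of BCAN also lay wholly within exon bases of an antisense RNA. The GC box was in all 9 windows and in 42.6% of all windows. This motif is made of G and C alone, and every window but that of FMOD was above the median GC content. The 2 shares were not matched for GC content, so they show no excess of the motif itself. The AP-1 motif TGACTCA and the hypoxia response core ACGTG, searched on both strands, were in 0 of the 9 and in 4.203% and 18.5% of all. The TATA box TATAAA was in 1 (FMOD) and in 10.7% of all, and the SMAD box was in 3 (CSPG4, HSPG2 and SDC1) and in 13.6% of all.

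BGN encodes biglycan, which binds collagen and can also signal through toll-like receptors when it is released. BGN (ENSG00000182492, GRCh38 chromosome X, 153494939 to 153509554, plus strand) had 2 and 1 counts in the abemaciclib libraries, against 488 and 738 counts in the untreated libraries. This is 0.0831 and 0.0295 CPM with abemaciclib, against 18.1 and 22.6 CPM untreated, and the abemaciclib values are under the 0.0886 to 0.125 CPM that 3 counts make in these libraries. The groups did not overlap, as was the case for 87.9% of all tested genes. The ratio of scaled counts was 396.5-fold lower with abemaciclib (95% exact counting interval 135.4 to 1925, counting error only). Its log2 fold change, -8.51 ± 0.27 (SE, edgeR adjusted p = 9.27e-21), depends on the prior count and ranks 13 from the lowest of 17207 genes. The SE is derived from that fold change and its F statistic. At 2 and 1 counts it understates the uncertainty, and the counting interval is far wider. HAUS7, which overlaps BGN on the opposite strand without sharing exon bases, had 142 and 209 counts with abemaciclib, against 300 and 332 untreated.

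DCN encodes decorin, which regulates collagen fibril width and binds TGF-beta and the receptors EGFR and MET. DCN (ENSG00000011465, chromosome 12, 91140484 to 91183123, minus strand) stood at 60.4 and 60.0 CPM with abemaciclib, against 418.0 and 412.7 CPM untreated. The 2 libraries of each group lay close together and the groups were far apart. On the log2 scale DCN fell by 2.79 (SE 0.04, edgeR adjusted p = 1.75e-33), a level 6.90-fold lower with abemaciclib, at percentile 3.98 of the fold changes of tested genes.

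LUM, the keratan sulfate proteoglycan lumican of collagen fibrils, lies next to DCN, with 28.7 kb between them. LUM (ENSG00000139329, chromosome 12, 91102629 to 91111831, minus strand) stood at 99.9 and 94.5 CPM with abemaciclib, against 231.2 and 227.7 CPM untreated. It fell by 1.24 on the log2 scale (SE 0.04, edgeR adjusted p = 2.24e-24), less than its neighbour DCN, a difference between the genes that was not tested.

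FMOD encodes fibromodulin, another collagen-binding member. FMOD (ENSG00000122176, chromosome 1, 203340628 to 203351758, minus strand) was close to the detection limit, with 6 and 7 counts with abemaciclib, against 7 and 7 counts untreated. It did not pass the filter on low counts, and the ratio of scaled counts, abemaciclib over untreated, was 0.957 (95% exact counting interval 0.414 to 2.20). Ratios within that interval are compatible with these counts, which leaves out the spread between libraries, and no detection limit was computed.

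VCAN encodes versican, a large chondroitin sulfate proteoglycan of provisional and glioma matrix. VCAN (ENSG00000038427, chromosome 5, 83471465 to 83582303, plus strand) stood at 169.1 and 167.2 CPM with abemaciclib, against 224.6 and 229.0 CPM untreated. The fall was small next to that of DCN but larger than the spread between libraries (log2 fold change -0.43 ± 0.03, edgeR adjusted p = 1.69e-13), and it did not pass the test against 2-fold. It was under the median absolute log2 fold change of all tested genes, 0.63, as were the changes of BCAN, GPC1 and CSPG4. VCAN has 12 annotated transcripts, its known isoforms differ in the chondroitin sulfate exons, and a gene-level count does not tell them apart.

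BCAN encodes brevican, a proteoglycan of brain matrix. BCAN (ENSG00000132692, chromosome 1, 156641390 to 156659532, plus strand) was low in all libraries, with 38 and 44 counts with abemaciclib, against 54 and 67 counts untreated, or 1.58 and 1.30 CPM with abemaciclib against 2.00 and 2.05 CPM untreated. The groups did not overlap, but the difference did not pass (log2 fold change -0.51 ± 0.26, edgeR adjusted p = 0.078). The counting interval of the ratio, abemaciclib over untreated, ran from 0.521 to 0.932, which leaves out the spread between libraries. AL365181.3, an antisense RNA that shares 328 exon bases with BCAN, had 76 and 187 counts with abemaciclib, against 94 and 157 untreated, more than BCAN itself. A further antisense RNA, AL590666.2, also shares exon bases with BCAN and had 22 and 30 counts with abemaciclib, against 11 and 25 untreated. No source says whether strand was used in counting, so how the reads were divided among them cannot be told.

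HSPG2 encodes perlecan, the large heparan sulfate proteoglycan of basement membranes. HSPG2 (ENSG00000142798, chromosome 1, 21822245 to 21937297, minus strand) stood at 141.9 and 131.3 CPM with abemaciclib, against 359.3 and 347.2 CPM untreated. It fell by 1.37 on the log2 scale (SE 0.04, edgeR adjusted p = 1.91e-23), a level 2.59-fold lower. LDLRAD2 shares 2121 exon bases with HSPG2 on the opposite strand but had 0 and 1 counts with abemaciclib, against 3 and 5 untreated.

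SDC1 encodes syndecan-1, a transmembrane heparan sulfate co-receptor whose outer part can be shed. SDC1 (ENSG00000115884, chromosome 2, 20200797 to 20225433, minus strand) stood at 783.7 and 780.9 CPM with abemaciclib, against 76.4 and 85.2 CPM untreated. Both abemaciclib libraries were far above both untreated ones. This was a log2 fold change of 3.27 ± 0.04 (SE, edgeR adjusted p = 2.97e-28), a level 9.68-fold higher, and it ranks 250 from the highest of the 17207 genes. No other annotated gene overlaps it.

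GPC1 encodes glypican-1, a heparan sulfate proteoglycan held to the membrane by a lipid anchor. GPC1 (ENSG00000063660, chromosome 2, 240435671 to 240468078, plus strand) stood at 128.1 and 128.8 CPM with abemaciclib, against 114.0 and 115.6 CPM untreated. The groups were separate, but the rise was small (log2 fold change 0.16 ± 0.03, edgeR adjusted p = 1.05e-04), with a ratio of 1.12.

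CSPG4, also called NG2, is a transmembrane chondroitin sulfate proteoglycan known from oligodendrocyte precursors, pericytes and gliomas. CSPG4 (ENSG00000173546, chromosome 15, 75674322 to 75712848, minus strand) stood at 187.4 and 177.7 CPM with abemaciclib, against 153.0 and 141.3 CPM untreated (log2 fold change 0.31 ± 0.04, edgeR adjusted p = 5.11e-08). Like GPC1, it did not pass the test against 2-fold. Its expected counts were not whole, and 9 listed CSPG4 pseudogenes together held 3.53% and 3.90% of the CSPG4 count with abemaciclib, against 2.32% and 3.03% untreated. The antisense RNA AC105020.4, which shares 563 exon bases with CSPG4, had 0 and 3 counts with abemaciclib, against 16 and 19 untreated (log2 fold change -3.41 ± 0.70, edgeR adjusted p = 6.01e-05). AC105020.1, also antisense but with 0 shared exon bases, was lower too, at 11 and 17 counts with abemaciclib, against 154 and 195 untreated (log2 fold change -3.58 ± 0.24, edgeR adjusted p = 1.07e-14).

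**Figure D2:**
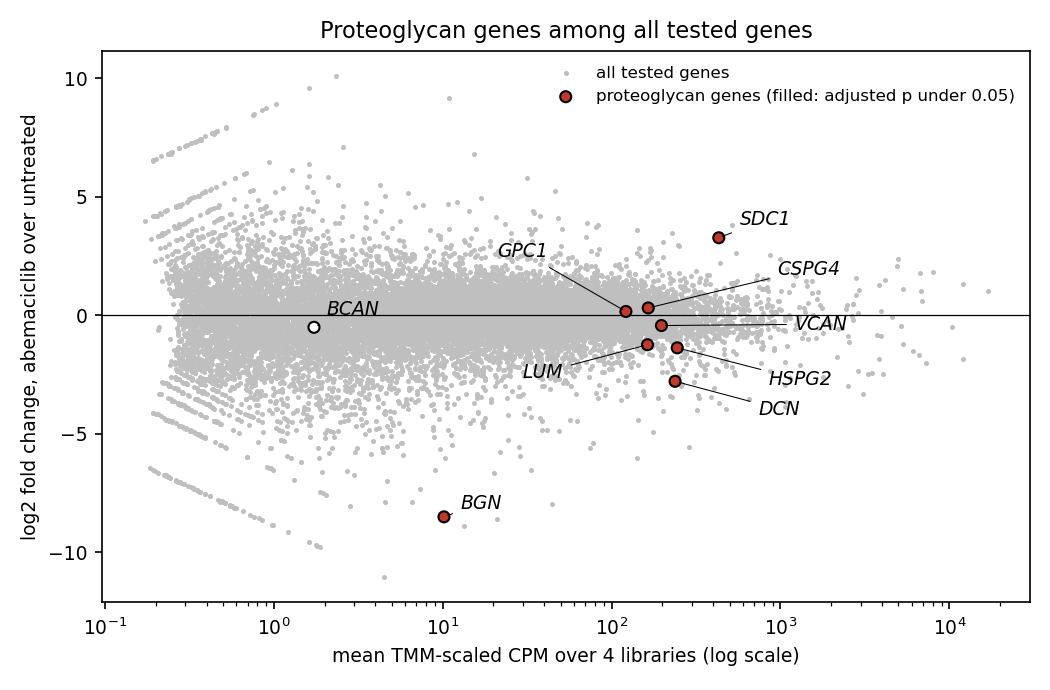
Log2 fold change, abemaciclib over untreated, against mean TMM-scaled CPM over the 4 libraries (log axis), for all 17207 tested genes (grey) and the 9 tested proteoglycan genes (filled where adjusted p was under 0.05, open for BCAN). BGN and SDC1 lie at the edges of the cloud at -8.51 and 3.27, while GPC1, CSPG4 and VCAN lie within it.

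To compare levels between genes, CPM was divided by transcript length in kb (the median over the principal transcripts that APPRIS marks in GENCODE 29). On this scale SDC1 came first with abemaciclib at 243.0 ± 0.62 CPM per kb (SD, n = 2), followed by GPC1 (34.6 ± 0.14), LUM (32.3 ± 1.27), DCN (28.2 ± 0.13), CSPG4 (22.02 ± 0.83), VCAN (13.3 ± 0.11) and HSPG2 (9.54 ± 0.53). In untreated spheres the order was DCN (194.7 ± 1.77), LUM (76.3 ± 0.81), GPC1 (30.9 ± 0.32), SDC1 (25.1 ± 1.92), HSPG2 (24.7 ± 0.60), VCAN (18.0 ± 0.25), CSPG4 (17.8 ± 1.00) and BGN (8.46 ± 1.32). SDC1 and HSPG2, and likewise VCAN and CSPG4, overlapped between libraries in the untreated group and cannot be ordered there. BCAN and FMOD were under 1 CPM per kb in both groups, and BGN was at 0.023 ± 0.016 with abemaciclib. The order depends on the length. With the length of all annotated exons, LUM (76.3 ± 0.81) came before DCN (32.3 ± 0.29) in untreated spheres, and with abemaciclib SDC1 stayed in place 1 while DCN moved to place 7 and GPC1 to place 4.

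Cell surface proteoglycans made up most of this set of transcripts with abemaciclib, and collagen-binding ones most of it untreated. Of the summed CPM per kb of the 10 genes, the small leucine-rich genes BGN, DCN, LUM and FMOD held 15.97% and 15.6% with abemaciclib, against 70.7% and 70.3% untreated. The cell surface genes SDC1, GPC1 and CSPG4 held 77.9% and 78.4% with abemaciclib, against 18.4% and 18.8% untreated. SDC1 alone held 63.1% and 63.7% with abemaciclib, against 5.98% and 6.68% untreated. The sum itself was 385.9 and 381.1 CPM per kb with abemaciclib, against 396.7 and 396.2 untreated. With the length of all annotated exons in place of the principal transcripts, which makes DCN 12.8 kb instead of 2.13 kb long, the small leucine-rich share was 12.0% and 11.5% with abemaciclib, against 55.8% and 55.6% untreated. The sum then came to 317.8 and 313.4 with abemaciclib, against 209.4 and 210.6 untreated, so the near-equal sums depend on the length used. With 2 libraries a group, the smallest two-sided p an exact permutation test of such a share allows is 0.333.

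**Figure D3:**
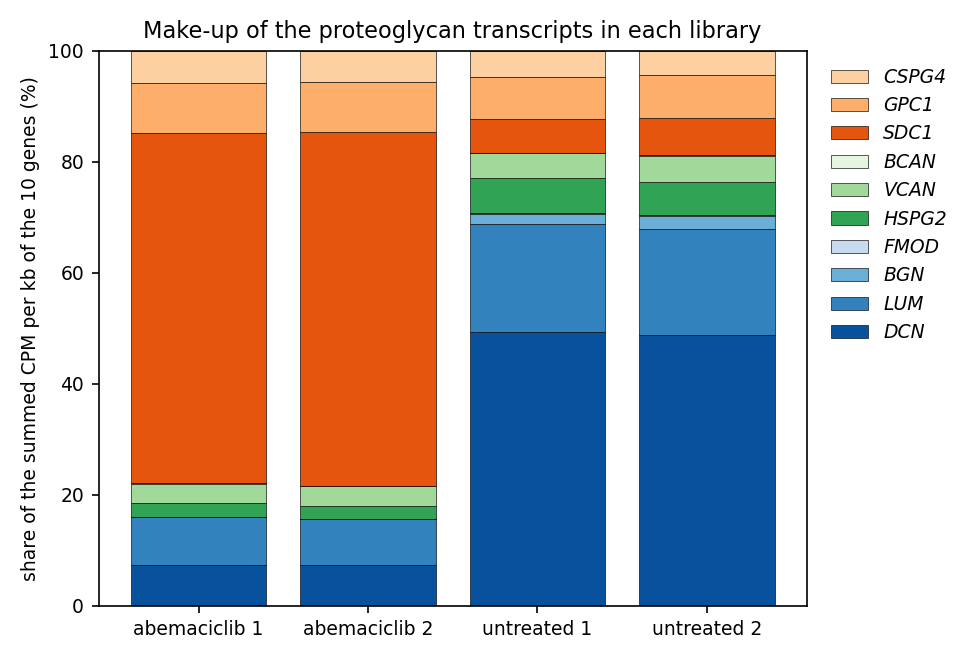
Share of each gene, in percent, in the summed CPM per kb of the 10 genes, with 1 stacked bar per library (blue: small leucine-rich, green: VCAN, BCAN and HSPG2, orange: cell surface). SDC1 fills 63.1% and 63.7% of the abemaciclib bars, while DCN and LUM lead the untreated bars.

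All 4 libraries are of 1 established line, U87MG, so the marker lists below describe genes in that line and do not count other cell types. Bulk RNA cannot tell fewer cells that express a gene from less RNA per cell. The marker counts stand beside 77.3% of all tested genes called, 38.0% higher and 39.3% lower. Of 10 markers of fibroblasts and pericytes, 9 were tested, of which 2 were higher and 4 lower. The markers summed to 2059 and 1988 CPM with abemaciclib, against 3567 and 3486 CPM untreated, most of it from 3 genes. The collagen gene COL1A1 stood at 1575 and 1509 CPM with abemaciclib, against 2047 and 1968 CPM untreated (log2 fold change -0.38). NOTCH3, a receptor of pericytes, stood at 182.4 and 180.8 CPM with abemaciclib, against 770.7 and 768.6 CPM untreated (-2.08), and PDGFRB at 127.7 and 127.9 CPM with abemaciclib, against 569.6 and 572.7 CPM untreated (-2.16). FAP was also lower (-0.44). ABCC9 was higher, at 22.4 and 20.7 CPM with abemaciclib, against 8.93 and 8.89 CPM untreated (1.27). ACTA2 was slightly higher, at 62.9 and 63.1 CPM with abemaciclib, against 57.1 and 58.6 CPM untreated (0.12). RGS5 (0.21), KCNJ8 (0.16) and ANPEP (0.22) did not pass. THY1 was the one marker of this list not tested, with 4 and 10 counts with abemaciclib, against 9 and 9 untreated. Of 7 oligodendrocyte precursor markers, PDGFRA and OLIG2 were tested and both were lower. The list summed to 37.6 and 35.0 CPM with abemaciclib, against 86.99 and 84.86 CPM untreated, most of it PDGFRA. OLIG2 had 62 and 77 counts with abemaciclib, against 112 and 183 untreated (-1.03), while OLIG1, SOX10 and NKX2-2 had 0 counts in every library.

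Of 7 astrocyte markers 3 were tested, 1 higher and 2 lower, with a sum of 209.4 and 203.7 CPM with abemaciclib, against 570.0 and 565.4 CPM untreated, most of it the gap junction gene GJA1, while AQP4, S100B and ALDH1L1 had at most 3 counts in any library. Of 7 glioma markers 6 were tested, 1 higher and 5 lower, with a sum of 4896 and 4951 CPM with abemaciclib, against 7707 and 7121 CPM untreated. The higher one, SOX2, had few counts, 11 and 12 with abemaciclib, against 1 and 2 untreated. OLIG2, among the lower ones, is also in the oligodendrocyte precursor list. Of 8 macrophage and microglia markers 4 were tested, 2 higher and 2 lower, while AIF1 had 0 counts in every library. The list summed to 1107 and 1079 CPM with abemaciclib, against 524.5 and 515.1 CPM untreated, nearly all of it the lysosomal gene CD68. PTPRC, which was higher, had only 18 and 14 counts with abemaciclib, against 4 and 3 untreated. CD14, which was lower, had 6 and 12 counts with abemaciclib, against 19 and 21 untreated. Of 7 endothelial markers 4 were tested, 2 higher and 1 lower, with a sum of 26.5 and 27.2 CPM with abemaciclib, against 26.03 and 28.8 CPM untreated, while CDH5, CLDN5 and FLT1 had at most 4 counts in any library. The part of any of these markers in the proteoglycan results was not tested.

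Relatives of the 10 genes were counted by family, beside 38.0% of all tested genes higher and 39.3% lower. Of 14 other small leucine-rich genes only 3 had enough counts: PODNL1 (-1.60 ± 0.15, log2 fold change ± SE here and below) and TSKU (-0.54 ± 0.05) fell and ECM2 rose (1.30 ± 0.20). The other 11 had at most 12 counts over the 4 libraries. The link protein HAPLN3, which stabilises hyaluronan binding of hyalectans, fell to 3.84 ± 0.26 CPM with abemaciclib, against 16.5 ± 0.02 CPM untreated (-2.11 ± 0.11). HAPLN2, the brain link protein that neighbours BCAN, had 0 counts with abemaciclib, against 17 and 18 untreated, which is at least 11.3-fold lower with 3 counts over the group as the floor. AGRN, which encodes agrin, fell like HSPG2, to 133.1 ± 3.55 CPM with abemaciclib, against 393.5 ± 18.8 CPM untreated (-1.57 ± 0.04).

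None of the 3 other tested glypicans passed as higher. GPC2 (-3.08 ± 0.25) and GPC6 (-0.41 ± 0.04) fell, GPC5 did not pass (-0.43 ± 0.30, edgeR adjusted p = 0.187), and GPC3 and GPC4 were not tested, with at most 2 counts over the 4 libraries. Among the other syndecans SDC3 (1.10 ± 0.04) and SDC2 (0.67 ± 0.04) rose. SDC4 stood at 324.1 and 332.4 CPM with abemaciclib, against 438.8 and 356.1 CPM untreated, and did not pass (-0.27 ± 0.14, edgeR adjusted p = 0.216). Its untreated libraries lay far apart: without untreated replicate 1 it was -0.12, and without untreated replicate 2 it was -0.42. Each of these fits leaves 1 untreated library, so neither measures the spread of the untreated level. Of 11 tested other surface and secreted proteoglycans, 4 rose, among them ESM1 (1.93 ± 0.27), TGFBR3 or betaglycan (0.80 ± 0.16) and NRP1 (0.39 ± 0.03), and 5 fell, among them SRGN or serglycin (-0.85 ± 0.04), CD74 (-0.78 ± 0.03) and THBD (-0.69 ± 0.11).

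**Figure D4:**
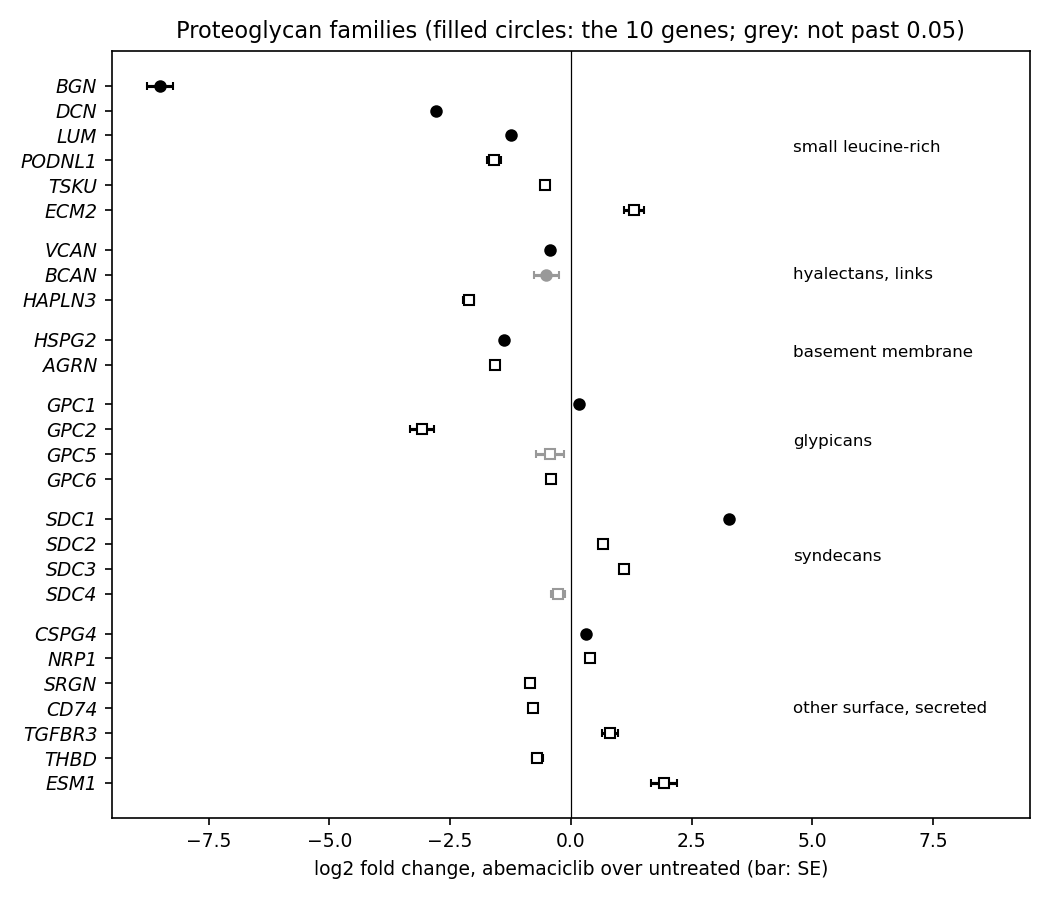
Log2 fold change with SE, abemaciclib over untreated, for the 9 tested genes of the set (filled circles) and relatives named from each family (open squares), grey where the adjusted p was not under 0.05. SDC1 stands at 3.27 above SDC2, SDC3 and SDC4, and BGN at -8.51 below the other small leucine-rich genes. The bar of BGN understates its uncertainty, since its abemaciclib libraries held 2 and 1 counts.

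Genes that build, break down or bind proteoglycans were counted from lists chosen by function, 212 genes in all, relatives included. The lists were made with earlier results of these data known. Their shares, here and below, therefore describe the listed genes and do not test for an excess over all genes. Of 169 tested, 69 were higher, 85 lower and 15 did not pass, so that 91.1% were called, against 77.3% of all genes. Each list count below stands beside 38.0% of all tested genes higher and 39.3% lower. Their median was -0.17 on the log2 scale, against -0.01 for all genes. Enzymes that make the sugar linkage to the core protein were split, 3 of 7 higher and 2 lower, with the glucuronyltransferase B3GAT3 (0.77 ± 0.04) and the galactosyltransferases B4GALT7 (0.70 ± 0.05) and B3GALT6 (0.70 ± 0.07) higher and the xylosyltransferase XYLT2 lower (-0.37 ± 0.04). For chondroitin and dermatan sulfate chains 5 of 15 were higher and 6 lower. The sulfotransferases CHST3 (1.49 ± 0.05) and CHST7 (1.09 ± 0.07) and the polymerising factor CHPF (1.30 ± 0.03) rose. CSGALNACT1 (-3.71 ± 0.11) and CSGALNACT2 (-1.76 ± 0.08), which add the first chondroitin sugar, and the sulfotransferase UST (-0.86 ± 0.07) fell.

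For heparan sulfate 8 of 14 tested enzymes were higher and 5 lower, with a median of 0.51. Of all tested genes, 38.0% were higher and 39.3% lower. The polymerase subunits moved in opposite directions, EXT2 higher (1.35 ± 0.04) and EXT1 lower (-1.18 ± 0.04). EXTL1 (2.43 ± 0.17) and the sulfotransferase NDST1 (1.07 ± 0.03) rose, and HS6ST1 (-1.05 ± 0.08) and HS3ST3A1 (-0.75 ± 0.04) fell. For keratan sulfate, the chain type of LUM and FMOD, 4 of 8 were higher and 4 lower, with the sulfotransferases CHST6 (-2.49 ± 0.16) and CHST1 (-2.16 ± 0.10) lower and B3GNT2 higher (0.40 ± 0.07). The 8 calls of this list came down to 5 by DESeq2, and leaving out any 1 of the libraries also gave fewer. Of 12 genes for sugar and sulfate donors 7 were higher and 5 lower, among them UXS1, which makes UDP-xylose (1.10 ± 0.04), and the nucleotide sugar transporter SLC35D1 (1.18 ± 0.07) higher and GFPT2 of hexosamine synthesis lower (-1.31 ± 0.03).

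Of 18 tested genes of chain degradation 15 were higher and 3 lower, with a median of 0.80, where 38.0% of all tested genes were higher and 39.3% lower, with a median of -0.01. The hyaluronidase HYAL2 (1.70 ± 0.05) and the sulfatase activator SUMF1 (1.64 ± 0.04) rose, while heparanase HPSE (-1.33 ± 0.21) and the glucuronidase GUSB (-1.20 ± 0.05) fell. A further list held proteases, sheddases and related genes that act on core proteins. Of its 18 tested genes, 6 were higher and 11 lower, beside the same shares of all genes. The list also holds PCOLCE, an enhancer of procollagen processing that is no protease, and NOTUM, a hydrolase that binds glypicans, both among the 11. Stromelysin MMP3 rose (2.56 ± 0.11), as did ADAMTS5 (0.79 ± 0.07) and ADAMTS1 (0.73 ± 0.04). MMP9 (-4.52 ± 0.22), MMP13 (-4.10 ± 0.12) and NOTUM (-5.41 ± 0.22) fell.

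Of 27 tested ligands and receptors that bind these proteoglycans 10 were higher and 14 lower. The decorin-binding receptor MET (1.81 ± 0.04), the integrin subunit ITGA3 (1.58 ± 0.03) and FGF1 (1.54 ± 0.11) rose, and VEGFA (-2.97 ± 0.03), PDGFRB (-2.16 ± 0.03) and the biglycan-binding receptor TLR2 (-1.68 ± 0.16) fell. Their matrix partners fell in 23 of 27 cases and rose in 4, with a median of -1.68, beside the same shares of all genes, 39.3% lower and 38.0% higher. The basement membrane collagens COL4A1 (-5.26 ± 0.11) and COL4A2 (-4.43 ± 0.06) and the elastin gene ELN (-4.15 ± 0.21) fell, while the perlecan and agrin receptor DAG1 (1.04 ± 0.03), the hyaluronan synthase HAS3 (0.53 ± 0.11) and LAMA2 (0.39 ± 0.07) rose. All genes named as risen or fallen from these lists passed an edgeR adjusted p of 0.05.

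**Figure D5:**
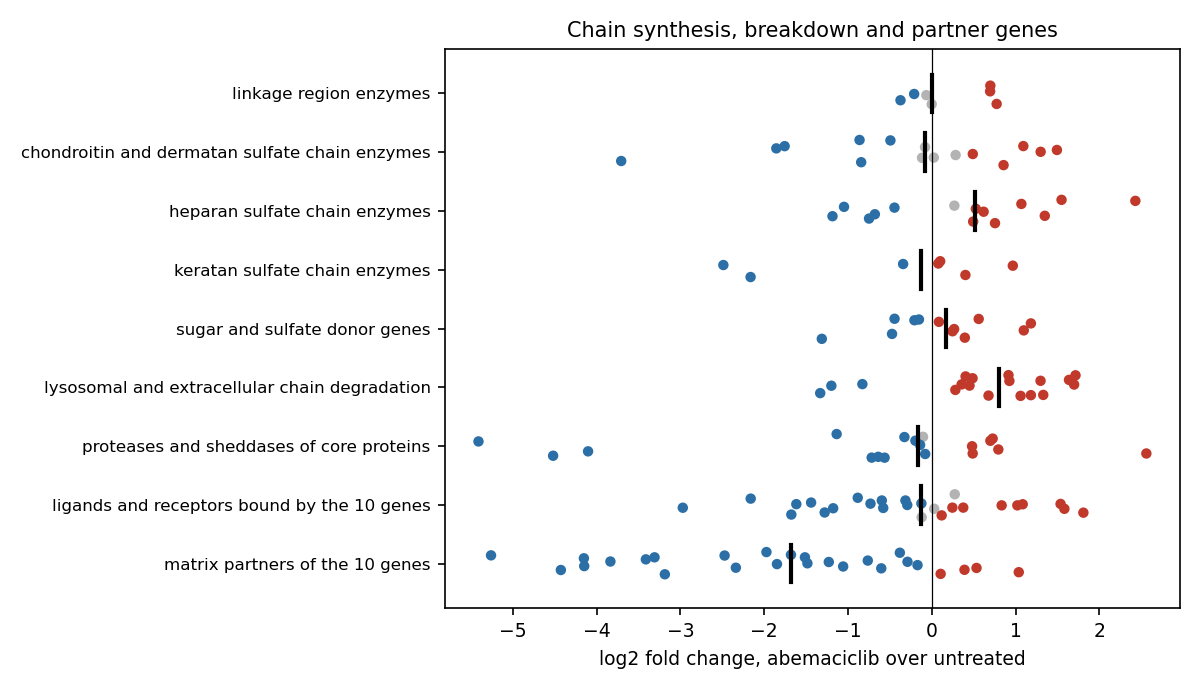
Log2 fold change, abemaciclib over untreated, of the tested genes of 9 functional lists, with 1 point per gene (red higher, blue lower, grey not past an adjusted p of 0.05) and a black bar at the list's median. TLR4, B3GNT7 and FBLN2, each at 3 counts or fewer over one group, are left undrawn but enter the medians, and the points of chain degradation lie mostly to the right and those of the matrix partners mostly to the left.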

How the data were processed

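The authors deposited 1 file per library with expected counts, estimated reads per gene that need not be whole, per the file headers. The submitters' processing notes list RSEM 1.3.1, STAR 2.7.2b and the build GRCh38, with no roles. The annotation release and strand setting are not given in the sources used here, and expected counts divide reads among related genes. Libraries were made from poly-A RNA with a stranded TruSeq kit, per the labels' protocols.

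The expected counts were rounded to whole numbers and tested with edgeR 4.0.16 (R 4.3.3, filterByExpr, TMM factors 0.980 to 1.02, robust quasi-likelihood F test, two-sided, group alone, Benjamini-Hochberg over 17207 genes), after the code was tested on simulated data. Each SE is the absolute log2 fold change over the root of its F statistic. The alternatives included DESeq2 1.42.0, other scalings, a replicate block and leaving out each library. Coordinates, overlaps and lengths came from GENCODE 29 (GRCh38), which matched 58444 of 60617 identifiers. 1 listed name, BPNT2, had no match.

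The 10 genes and the lists were chosen with earlier results of these data known. From each list, up to 3 called genes per direction with a mean of at least 1 CPM and the largest change could be named, and any gene of a list with under 6 tested. A gene that this rule names is not reported here.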

Additional observations from a re-analysis of the deposited data

How the results depend on the processing

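The directions of the 9 tested proteoglycan genes held under all 12 alternatives, and 8 of them were called in 11 of these. Under the test against a 2-fold change 5 were called, with 62 of the 154 list genes and 3709 of the 13299 genes overall. VCAN (-0.43), GPC1 (0.16) and CSPG4 (0.31) then had an adjusted p of 1, by the construction of that test. Fold changes over the alternatives ran from -9.24 to -7.86 for BGN, from -2.80 to -2.73 for DCN, from 3.20 to 3.35 for SDC1 and from 0.15 to 0.22 for GPC1. BCAN was not called under any, with adjusted p from 0.0703 to 1. Leaving out 1 library gave 12310 to 12875 calls overall and 8 among the proteoglycan genes, with the lone library assumed to vary like the others.

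The replicate block left 8 proteoglycan genes and 13108 genes called. The shared numbers do not show pairing, since deviations of same-numbered libraries had a correlation of 0.00223. The length over all exons, chosen after seeing the data, moved DCN to 4.69 CPM per kb with abemaciclib, against 32.3 untreated. Of the 1052 other values and list counts compared, 48 lost their call, 2 gained one, 27 moved and none reversed. Depth limits BGN with abemaciclib and FMOD in both groups.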

Other observations

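Neighbours of the genes on the chromosome did not share one direction. Next to LUM and DCN, KERA had 0 counts in every library and EPYC had 4 and 2 counts with abemaciclib, against 4 and 2 untreated, while BTG1, a growth-inhibitory gene 957.2 kb on the other side of DCN, fell (log2 fold change -1.68 ± 0.05, SE, edgeR adjusted p = 3.05e-24). Of the 4 protein-coding neighbours of SDC1, 2 on each side, MATN3 at 188.1 kb (1.32 ± 0.16, edgeR adjusted p = 1.36e-08) and LAPTM4A at 148.8 kb (0.14 ± 0.03, adjusted p = 1.14e-04) rose, and PUM2 at 23.3 kb (-0.41 ± 0.06, adjusted p = 8.43e-08) and RHOB at 221.6 kb (-1.96 ± 0.04, adjusted p = 4.23e-28) fell. TLR4, a receptor for biglycan, had 53 counts over the abemaciclib libraries and 0 over the untreated ones, which is at least 18.2-fold higher with 3 counts over the group as the floor. These genes were chosen after their values were seen.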
